A study of Oryctolagus cuniculus with 54 samples.

Results

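A set of 120 genes was followed through the fetal and term series of the study. Their RNA was higher in the rabbit lung at day 28 of gestation, both in fetuses and just after preterm delivery, than in older pups. The older pups were born preterm or at term and were a few days old. The 120 were taken from 8401 genes at or above a level limit, in a table of 29587 genes. Levels are given as counts scaled to the library total (CPM) or as log2(CPM+1), and the genes were chosen by their levels in the 12 libraries of sequencing run 2 alone. A gene passed the level limit when the lower of its mean levels in 2 groups, fetuses at day 28 (F28) and preterm pups 1 h after delivery (P0), was at least 2.6 on the log2(CPM+1) scale. It was then ranked by its margin, which is that lower level minus the highest of the mean levels in preterm pups on day 3 (P3), preterm pups on day 7 (P7) and term pups on day 4 (T35). The genes with the 120 widest margins were kept, and rank 1 has the widest.

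Before birth the lung is filled with liquid that its own epithelium secretes, and gas exchange takes place in the placenta. At birth the liquid is cleared, breathing begins and blood flow through the lung rises, while the airspaces go on dividing and their walls go on thinning. A pup delivered early goes through this change with a lung at a less mature stage, and the preterm rabbit is used as a model of the lung disease of preterm infants.

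All animals were New Zealand White rabbits, and the letter before a number gives the kind of pup. Fetuses (F) were taken by C-section on days 20, 23, 25, 27, 28 and 29 of gestation, and their lungs were collected at once (4, 4, 3, 3, 3 and 3 animals). Term pups (T) were born naturally on day 31, stayed with their mothers in room air and were sampled on the day of birth (T31, 6 animals) or 4, 6 and 11 days later (T35, T37 and T42, with 3, 4 and 3 animals). Preterm pups (P) were delivered by C-section on day 28 and kept in incubators at 21% oxygen, with a milk replacer given by orogastric tube, and 3 animals were sampled at each of P0, P3 and P7. Preterm and term pups therefore differed in delivery, housing and feeding as well as in gestational age, and these cannot be told apart. Right lungs were used, except that the study's methods name whole lungs at F20 and F23. The animal was the replicate, with pups from different dams at each time point, so the p-values measure the spread between these animals.

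The 45 animals gave 54 libraries in 3 runs, with 5771693 to 8073755 counts per library and a median of 7090332. No 2 libraries were identical. Run 2 held 3 P0, 3 P3, 2 P7, 2 F28 and 2 T35 animals. The 6 animals sequenced in more than 1 run, among them all 4 F28 and T35 animals of run 2, link the runs. The table lists genes by Ensembl identifier alone, and 0 of its 29587 identifiers matched an entry of the RefSeq gene table used here. Gene names, gene functions, sequences and a check of the lung label against marker genes are therefore not given, the identifiers of 4 genes are printed, and the other genes are called by their rank. Since whole tissue was sequenced, fewer cells of a type and less RNA per cell cannot be told apart in any of the values that follow.

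In run 2 the median of the 120 genes was 5.12 on the log2(CPM+1) scale at F28 and 5.06 at P0, against 4.05 at P3, 3.94 at P7 and 3.77 at T35. These are the values that chose the genes, so they are described with no test. Over the 8401 genes at the level limit the corresponding medians ran from 5.18 to 5.34. The margin was 3.79 for the gene ranked 1 and 0.49 for the gene ranked 120, with a median of 0.67, and 16 genes had a margin of at least 1 and 5 a margin of at least 2. At the edge of the set, the genes ranked 118 to 120 had margins of 0.4896, 0.4888 and 0.4887, and the next 3 genes outside it 0.4842, 0.4811 and 0.4794. The edge is thus a position in a continuous order, in which 1765 of the 8401 genes had a margin above 0. The lower of the levels at F28 and P0 ran from 2.61 to 10.30 among the 120 genes, with a median of 5.0, so the set held weakly and strongly represented RNAs.

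The typical loss in preterm pups was 0.82 on the log2(CPM+1) scale from P0 to P3 and 0.99 from P0 to P7, and in term pups 1.11 from F28 to T35 (medians over the 120 genes). A low level at P3, P7 and T35 alike was required by the choice. P7 was below P3 in 85 genes (70.8%, against 43.3% of the 8401 genes), but by at least 0.5 in only 14 of them, and 5 genes were higher at P7 by at least that much. T35 was the lowest of the 3 later groups in 68 genes (56.7%, against 54.2% of the 8401), P7 in 40 (33.3%, against 20.4%) and P3 in 12 (10%, against 25.4%). T35 was below P7 in 61.7% of the 120 genes and in 68.3% of the 8401. P0 lay below F28 in 79 genes (65.8%, against 60.8% of the 8401), by at least 0.5 in 11, and above it by at least 0.5 in 2. Every P0 and F28 library lay above every P3, P7 and T35 library in 95 of the 120 genes (79.2%, against 3.54% of the 8401), which the choice of the genes largely fixes.

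**Figure D1:**
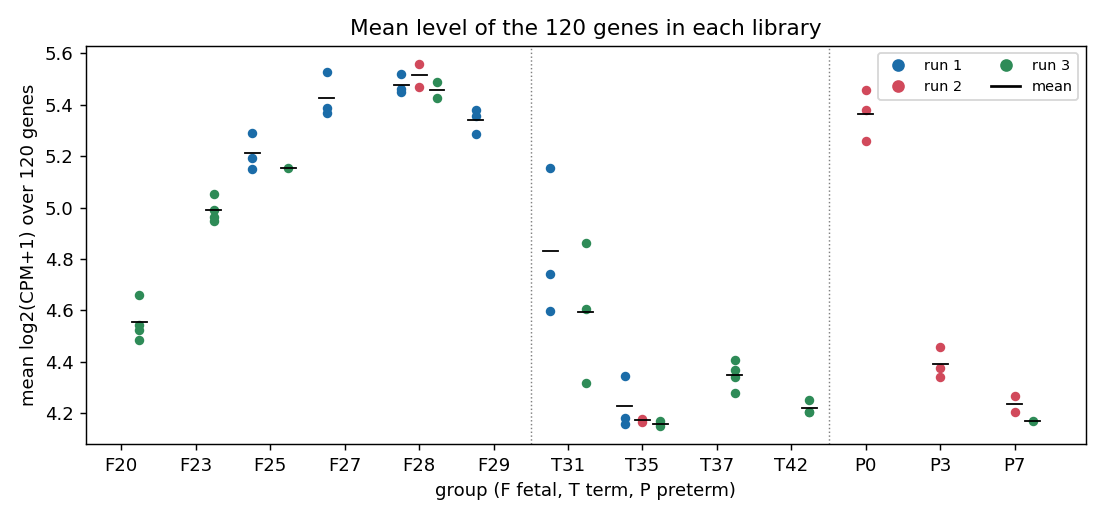
Mean level of the 120 genes, as the mean of log2(CPM+1) over the genes, in each of the 54 libraries (points, coloured by run), with the group mean in each run as a bar; F, T and P are fetal, term and preterm pups. The mean is 4.55 at F20 in run 3 and 5.48 at F28 in run 1, is spread widely in the newborns at T31, and lies between 4.15 and 4.46 in the libraries of T35, T37, T42, P3 and P7.

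The average over the 120 genes is given as a description, since a high level at F28 and a low level at T35 were built in by the choice, and most F28 and T35 animals of runs 1 and 3 were those of run 2. In run 3 the average was 4.55 ± 0.08 at F20 (SD, n = 4) and 4.99 ± 0.05 at F23 (SD, n = 4). In run 1 it was 5.21 ± 0.07 at F25, 5.43 ± 0.09 at F27, 5.48 ± 0.04 at F28 and 5.34 ± 0.05 at F29 (SD, n = 3 each), and the ranges of F27, F28 and F29 lay close together. At term it was 4.83 ± 0.29 at T31 and 4.23 ± 0.10 at T35 in run 1 (SD, n = 3 each). In run 3 it was 4.60 ± 0.27 at T31 (n = 3), 4.35 ± 0.05 at T37 (n = 4) and 4.22 ± 0.03 at T42 (n = 3). The early fetal lung was thus not at the level of F28, and F20 lay close to the newborns of run 3. In run 2 the preterm pups had 5.36 ± 0.10 at P0 and 4.39 ± 0.06 at P3 (SD, n = 3 each), and the pair of P7 libraries averaged 4.23.

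In run 2 the 120 genes together took 1.17% of all counts at P0, 0.63% at P3 and 0.59% at P7 (group means). At F28 they took 1.40% in run 1 and 1.29% in each of runs 2 and 3, and at T35 0.63%, 0.57% and 0.56% in runs 1, 2 and 3.

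Run 1 and run 3 hold 3 animals of the groups named in the choice that run 2 did not include. F28 animal 7 was above T35 animal 1, both in run 1, in 112 of the 120 genes (93.3%), against 59.1% of the 8401 genes. The median difference was 1.00 on the log2(CPM+1) scale for the 120 genes and 0.10 for all, and 60 of the 120 (50%) differed by over 1, against 4.24% of all. In run 3, F28 animal 7 was above P7 animal 1 in 115 genes (95.8%, against 59.3%), with a median difference of 1.04 against 0.09, and by over 1 in 65 genes (54.2%, against 4.54%). In this P7 library the 120 genes took 0.549% of the counts, with a 95% Wilson interval of 0.544% to 0.555% that covers counting error only. These are single animals, so their differences have no replicate check.

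The gene with the widest margin, ENSOCUG00000013068, was at 121 and 315 CPM in the F28 libraries of run 2 and at 62.3, 94.6 and 118 CPM at P0. It was at 3.23, 5.24 and 6.62 CPM at P3, at 4.45 and 6.72 CPM at P7 and at 0.125 and 11.6 CPM at T35. P0 did not overlap with P3 or P7, a separation that the choice of the genes largely fixes, and P3 and P7 overlapped with each other. In run 1 this gene was at 30.0 to 38.4 CPM at F25, at 4.06, 32 and 173 CPM at F27, at 192, 544 and 602 CPM at F28 and at 452, 462 and 837 CPM at F29. The F27 fetuses were thus spread over the range from below F25 to near F28, while every F29 fetus was above every F25 fetus. At T31 the run 1 newborns had 38.1, 491 and 824 CPM, and at T35 the values were 0.139, 7.72 and 20.5 CPM. In run 3 it was at 4.78 to 18.2 CPM at F20 and 15.2 to 38.4 CPM at F23, and the T35 animal 6 library held 0 counts of it, which allows up to 0.384 CPM. The gene was therefore low in early fetuses, high for a few days around birth and low again within days.

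The gene ranked 2, ENSOCUG00000028083, was likewise higher at F28 and P0 than in the later groups, as the choice required, and was at a lower level. It was at 14.7 and 47 CPM at F28 in run 2 and at 7.69, 10.5 and 17.3 CPM at P0. At P3 it was at 0, 0.134 and 0.562 CPM, at P7 at 0.646 and 0.862 CPM, and at T35 at 0.125 and 1.39 CPM, so that the later groups rest on few counts. In run 1 it was at 0.693, 1.01 and 1.31 CPM at F25, and at 13.5, 25.4 and 36.1 CPM at F29, with no overlap. The T31 newborns of run 1 had 3.34, 27.6 and 31.1 CPM. In run 3 the newborns had 5.35, 15.6 and 47.5 CPM, against 0.684 to 2.02 CPM in the 4 T37 pups, so the groups of that run did not overlap.

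**Figure D2:**
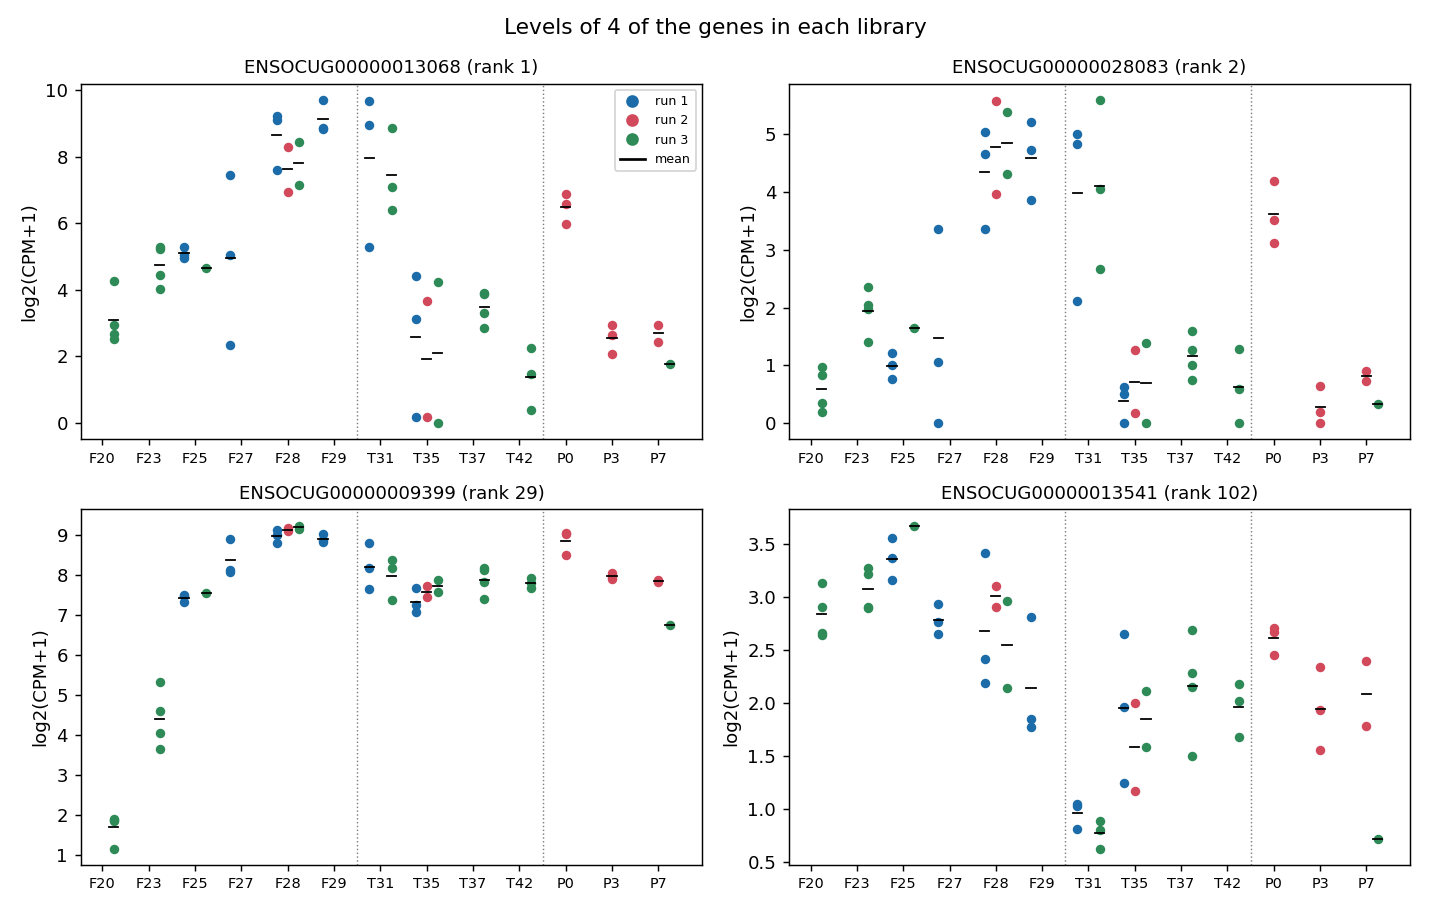
Level of 4 of the genes as log2(CPM+1) in each library (points, coloured by run), with the group mean in each run as a bar, over the fetal (F), term (T) and preterm (P) groups. Ranks 1 and 2 are highest at F28, F29 and T31, rank 29 is at 1.23 to 2.76 CPM at F20 and over 100 CPM from F25 on, and rank 102 is lower in every T31 animal than in every T37 animal.

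The 6 comparisons that follow use animals that had no part in the choice of the genes, each within 1 run, and were tested with the quasi-likelihood method of edgeR, with p adjusted after Benjamini and Hochberg over every gene tested (14044 in run 1 and 14533 in run 3). Calls required a fold change above 2 together with an adjusted p no higher than 0.05. All 120 genes passed the limit on low counts in both runs, and the share of all tested genes called is given beside each count of the 120. In all, 76 of the 120 genes were called in at least 1 of the 6 comparisons, against 22.7% of the 13501 genes tested in both runs, and 44 in none.

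Between the earliest fetal days, F20 and F23, more of the 120 genes were rising than falling. In run 3, 15 genes (12.5%) were higher at F23, against 1.51% of all genes tested, and 1 was lower, against 0.158% (1.67% of all in either direction). The median log2 change of the 120 was 0.41, against 0.00 for all genes. The largest called rise was that of the gene ranked 29, ENSOCUG00000009399. It was at 1.23, 2.6, 2.64 and 2.76 CPM at F20 and at 11.5, 15.5, 23.3 and 38.9 CPM at F23, so the groups did not overlap, and its log2 change was 3.29 (SE 0.38, adjusted p = 3.62e-05). The gene ranked 111 followed, with 27.6 to 44.9 CPM at F20, 114 to 206 CPM at F23 and a log2 change of 2.11 (SE 0.21). The 1 gene called lower, ranked 72, changed by -1.01 (SE 0.23), and its call is lost without F20 animal 1 (adjusted p = 0.0832), without F23 animal 6 (0.0627) and without F23 animal 23 (0.0636).

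During the last fetal days some of the 120 genes gained and others lost, while 96 were not called. Between F25 and F29 in run 1, 15 genes (12.5%) were higher at F29, against 4.28% of all genes tested, and 9 (7.5%) were lower, against 3% of all (7.28% in either direction). The median change was 0.12, against -0.04 for all genes. ENSOCUG00000013068 and ENSOCUG00000028083 were among those higher, by 4.20 (SE 1.09, adjusted p = 0.0242) and 4.68 (SE 1.09, adjusted p = 0.0131) on the log2 scale. The gene ranked 98 rose by 4.21 (SE 0.98), from 0.164, 0.337 and 2.6 CPM at F25 to 12.1, 18.7 and 23.0 CPM at F29. ENSOCUG00000009399 also rose, by 1.57 (SE 0.26, adjusted p = 0.00175), from 158 to 178 CPM at F25 to 452 to 518 CPM at F29, and it was the 1 gene called higher both here and from F20 to F23.

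The genes called lower at F29 were led by the gene ranked 105, which was at 10.5, 10.7 and 12 CPM at F25 and at 1.93, 2.45 and 3.03 CPM at F29. Its log2 change was -2.06 (SE 0.36, adjusted p = 0.00272). The gene ranked 66 changed by -1.99 (SE 0.32) and the gene ranked 47 by -1.62 (SE 0.26). The gene ranked 54 fell from 345, 383 and 394 CPM to 164, 172 and 174 CPM, a log2 change of -1.05 (SE 0.19, adjusted p = 0.0032). All 9 of these genes were thus called lower at a time still before birth. The count of 24 called genes depends on single animals: it was 15 without F25 animal 13, 12 without F25 animal 18 and 15 without F29 animal 2. Shares of all genes called without these animals are not given here. A drop particular to this set therefore cannot be read from these counts. The call of ENSOCUG00000013068 was lost without F25 animal 3 (adjusted p = 0.0734), F25 animal 13 (0.0803), F25 animal 18 (0.0931) or F29 animal 2 (0.0597), and that of ENSOCUG00000028083 without F25 animal 18 (0.057). The gene ranked 98 lost its call without F25 animal 13 (0.062) or F25 animal 18 (0.0657). With limma-voom the genes ranked 2 and 98 were not called, at adjusted p of 0.0762 and 0.0668.

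Across the fetal and term groups of run 1, the highest mean of a gene fell at F25 in 30 of the 120 (25%, against 36.5% of the 8401), at F27 in 34 (28.3%, against 9.84%), at F28 in 33 (27.5%, against 11.8%), at F29 in 19 (15.8%, against 7.67%) and at T31 in 4 (3.33%, against 18.3%). T35 had the lowest mean in 93 genes (77.5%, against 35.9%), T31 in 14 and F25 in 13. The choice bears directly on the counts at F28 and T35. Since each gene is counted in 1 group only, it also bears on the shares of the other groups, here and in run 3. In run 3 the lowest mean fell at F20 in 36 genes (30%, against 23.2%), at T35 in 31 (25.8%, against 24.1%), at T42 in 23 (19.2%, against 11.1%), at T31 in 18 (15%, against 23.8%), at T37 in 10 and at F23 in 2. For 36 of the 120 genes the level was thus lower at F20 than in any term group of that run. F20 was above T42 in 68 genes (56.7%), which is close to the 59.1% of the 8401 genes, and every F20 library was above every T42 library in 48 (40%, against 37.7%).

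On the day of term birth the 120 genes as a whole lay between the late fetuses and the older pups. Between F29 and T31 in run 1, 107 of the 120 log2 changes were negative, against 48.5% over all genes. The median was -0.42, against 0.01 for all genes. None of the 120 was called by edgeR, where 2 of the 14044 genes (0.0142%) were, and 41 of the 120 had an unadjusted p under 0.05, as did 1902 of all genes. DESeq2 called 7 of the 120, all lower, and 167 of all genes (1.19%), while limma-voom called 0 of the 120 and 1 of all genes. Every F29 library lay above every T31 library in 44 genes (36.7%, against 9.69% of the 8401). The result rests on 1 animal: without T31 animal 15, edgeR called 26 of the 120 genes, 25 of them lower, and 2.71% of all genes tested. This animal's library held 6514089 counts, close to the 6742828 and 6591795 of the other newborns of the run.

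The newborns differed among themselves more than the animals of the other groups did. The median over the 120 genes of the SD between animals was 0.43 at T31 in run 1 and 0.53 in run 3, on the log2(CPM+1) scale, against 0.17 to 0.32 in the other groups. Over the 8401 genes this median SD was 0.25 and 0.32 at T31, so the other genes also varied more there. In run 1 the average of the 120 genes was 4.74, 4.60 and 5.16 in animals 1, 10 and 15, which is 54%, 67% and 16.6% of the way from the mean of F29 to that of T35. Animal 15 was the highest of the 3 in 78 genes (65%, against 35.8% of the 8401). In run 3 the averages were 4.61, 4.32 and 4.86 in animals 4, 11 and 18, which is 65.5%, 88% and 45.8% of the way from F28 to T35, and animal 18 was the highest in 68 genes (56.7%, against 29.8%). A high level at F28 and a low level at T35 were built in by the choice, so part of this placing of the newborns is built in too. What set these animals apart was not tested, and time since birth in hours is not given in the labels.

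The newborns did not keep 1 order over the genes. ENSOCUG00000013068 was at 824, 38.1 and 491 CPM in animals 1, 10 and 15 and at 465, 82.7 and 135 CPM in animals 4, 11 and 18. By contrast, the gene ranked 32 was at 28.5, 24.7 and 608 CPM in animals 1, 10 and 15 and at 38.4, 41.8 and 464 CPM in animals 4, 11 and 18. Animals 15 and 18 were thus above the F28 fetuses of their own run (277 to 331 CPM in run 1, 369 and 452 CPM in run 3), and the other 4 newborns were below them. The gene ranked 4 was likewise highest in animals 15 and 18, at 112 and 52.3 CPM against 22.4 and 26.5 CPM in the other run 1 newborns and 6.47 and 7.33 CPM in the other run 3 newborns. The gene ranked 6 was at 135 and 229 CPM in animals 15 and 18, and at 51.1 to 78.3 CPM in the other 4.

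**Figure D3:**
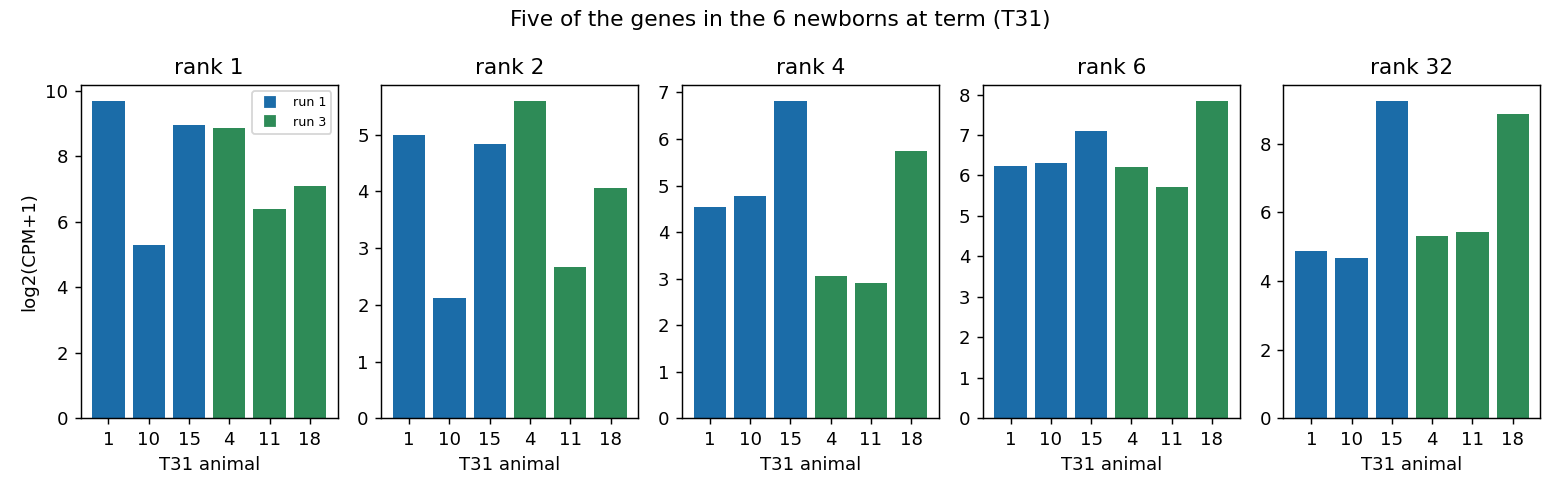
Level of 5 of the genes (ranks 1, 2, 4, 6 and 32) as log2(CPM+1) in each of the 6 newborns at term, T31, with bars coloured by run and starting at 0. Ranks 4, 6 and 32 are highest in animals 15 and 18, while ranks 1 and 2 are high in animals 1, 15 and 4.

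From T31 to T37 several of the genes with the widest margins fell. In run 3, 21 of the 120 genes (17.5%) were lower at T37, against 1.74% of all genes tested, and 5 (4.17%) were higher, against 3.58% (5.33% in either direction), with a median log2 change of -0.41 against 0.00. ENSOCUG00000013068 was at 6.29, 8.86, 13.8 and 14.1 CPM in the T37 pups, below every newborn, and changed by -4.54 (SE 0.61, adjusted p = 0.000187). ENSOCUG00000028083 changed by -4.29 (SE 0.68, adjusted p = 0.000621). The gene ranked 8, at 3.38, 6.11 and 17.8 CPM at T31 and 0.288 to 1.09 CPM at T37, changed by -4.18 (SE 0.62), and the gene ranked 3 by -3.71 (SE 0.85). The gene ranked 16 changed by -3.56 (SE 0.64).

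The largest called rise from T31 to T37 was that of the gene ranked 102, ENSOCUG00000013541. It was at 0.543, 0.743 and 0.844 CPM at T31 and at 1.83, 3.46, 3.86 and 5.47 CPM at T37, so the groups did not overlap, and its log2 change was 2.17 (SE 0.37, adjusted p = 0.0011). Within run 1 the newborns were at 0.759, 1.04 and 1.07 CPM and the T35 pups at 1.38, 2.91 and 5.28 CPM, again with no overlap. The newborn levels of this gene rest on few counts in both runs. The gene ranked 20 changed by 1.98 (SE 0.35) and that ranked 47 by 1.62 (SE 0.29). The other genes called higher were those ranked 109, by 1.15 (SE 0.25), and 64, by 1.05 (SE 0.25). Both were below a fold change of 2 without T31 animal 18, at 0.97 for each, and the gene ranked 64 was so too without T31 animal 11 (0.86) and without T37 animal 46 (0.93). The total of 26 called genes was 17 without T31 animal 18, with 12 of them lower, and 36 without T31 animal 11, with 31 lower. The shares of all genes called in these refits are not given here.

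From T37 to T42 little more changed. None of the 120 genes was called by edgeR, where 1 of the 14533 genes (0.00688%) was, 15 had an unadjusted p under 0.05, as did 1285 of all genes, and DESeq2 and limma-voom called 0 of the 120. The median log2 change was -0.13, against -0.02 for all genes, and 75 of the 120 were negative, as were 52.9% of all genes. ENSOCUG00000013068 was at 0.307, 1.79 and 3.75 CPM at T42, below every T37 pup, with a log2 change of -2.34 (SE 0.74, adjusted p = 0.327).

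**Figure D4:**
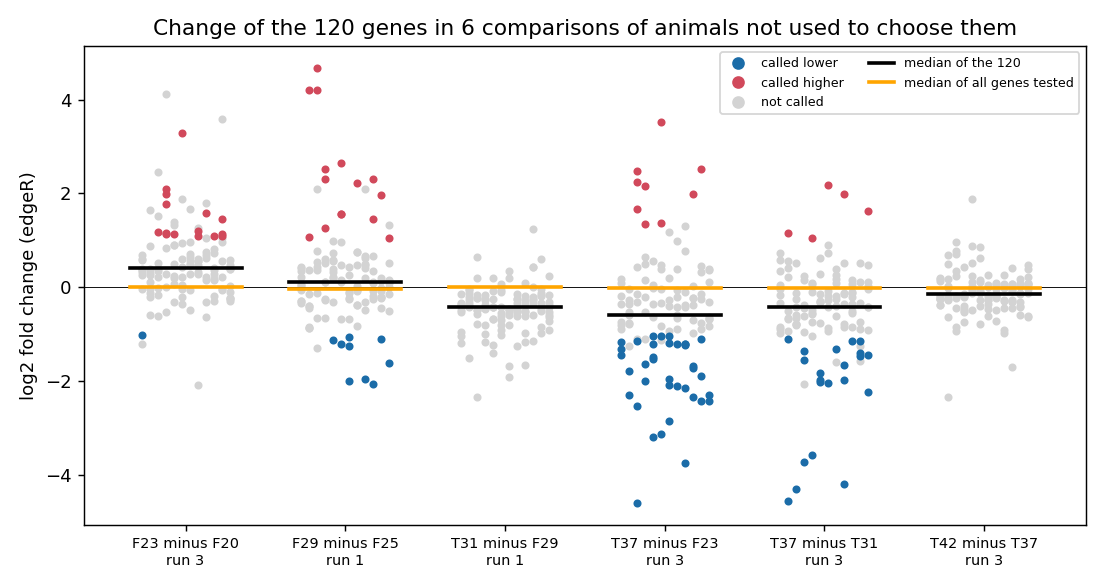
Log2 fold change (edgeR) of each of the 120 genes (points) in 6 comparisons of animals with no part in the choice of the genes, coloured by whether the gene was called lower or higher, with the median of the 120 genes (black) and of all genes tested (orange). The median of the 120 is above that of all genes in both fetal comparisons, at 0.41 and 0.12, and below it in the 4 others.

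Set against fetuses of day 23, which are earlier than those of the choice, T37 pups were lower in 37 of the 120 genes (30.8%, against 6.41% of all genes tested) and higher in 9 (7.5%, against 11.3%). The median log2 change was -0.59, against -0.02 for all genes. Every F23 library was above every T37 library in 62 genes (51.7%, against 29.1% of the 8401). Whole lungs at F23 and right lungs at T37 were set against each other here, and the part of this in the result was not tested.

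The gene ranked 20 was at 39.5, 39.9, 42.4 and 51.9 CPM at F23 and at 1.69, 3.14, 3.31 and 3.83 CPM at T37, a log2 change of -3.74 (SE 0.23, adjusted p = 2.58e-09). It was at 62.4 to 76.3 CPM at F20 in the same run. Within run 1 it was at 11.8 to 16.5 CPM at F25 and 2.42 to 5.60 CPM at F29, and within run 3 the newborns, at 0.372, 0.422 and 1.22 CPM, were below every T37 pup. The gene ranked 54 was at 1102 to 1181 CPM at F20, at 693, 820, 849 and 897 CPM at F23 and at 96.8 to 113 CPM at T37, and changed by -2.85 (SE 0.15, adjusted p = 4.04e-10) from F23 to T37. Its values within each group lay close together. The widest change from F23 to T37, -4.59 (SE 0.90) for the gene ranked 110, came from an uneven group, with 14.9, 194, 232 and 431 CPM at F23 and 5.90 to 9.86 CPM at T37. This gene was also uneven at F20, at 9.71 to 361 CPM.

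ENSOCUG00000009399 moved the other way, from 11.5 to 38.9 CPM at F23 to 167, 225, 276 and 284 CPM at T37, a log2 change of 3.51 (SE 0.32, adjusted p = 2.35e-07). It was at 443, 510 and 557 CPM at F28 in run 1, and at 132, 150 and 202 CPM at T35, so its loss after birth was partial, and it stayed well above the level of the early fetus. The genes ranked 70, by 2.52 (SE 0.60), and 38, by 2.47 (SE 0.45), were also higher at T37 than at F23.

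The late fetal change and the change from F23 to T37 were measured in different animals and runs, so they can be set side by side. Of the 9 genes called lower from F25 to F29, 8 were called lower from F23 to T37 and 0 higher, with a median log2 change of -2.41. Of the 15 called higher from F25 to F29, 0 were called lower from F23 to T37 and 6 higher, with a median of 0.48. Among the other 96 genes, 29 were lower and 3 higher, with a median of -0.55. These are 30.2% lower and 3.12% higher, against 4.39% and 8.53% of all genes not called from F25 to F29. The sorting by late fetal change was not particular to the 120. Over all genes tested in both runs, 68.2% of those called lower from F25 to F29 were lower from F23 to T37, and 82.6% of those called higher were higher, against 40% of the 15. From T31 to T37 the classes fell in the opposite order. There, 0 of the 9 genes were lower and 3 higher (median 0.62), while 6 of the 15 were lower and 0 higher (median -1.31), and of the other 96 genes 15 were lower and 2 higher (median -0.40). Over all genes, 46.7% of those called lower from F25 to F29 were higher from T31 to T37, and 7.69% of those called higher were lower. Of the 96 genes not called, 15.6% were lower and 2.08% higher from T31 to T37, against 1.61% and 2.42% of all genes not called. The classes are counts over few genes, with no test of the difference between them.

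**Figure D5:**
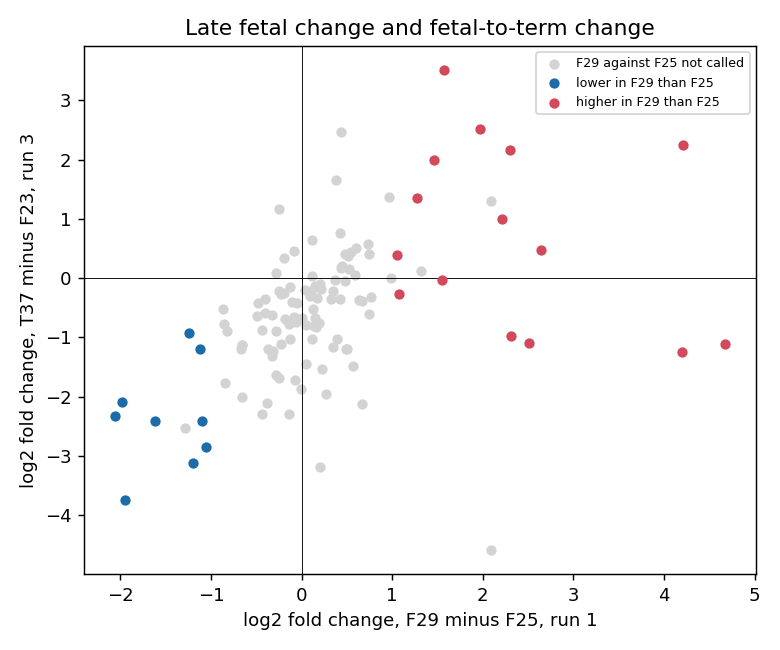
Log2 fold change from F25 to F29 in run 1 (horizontal axis) and from F23 to T37 in run 3 (vertical axis) for each of the 120 genes (points), coloured by the call in the first of these. The 9 genes lower at F29 lie between -3.74 and -0.92 on the vertical axis, and the 15 higher at F29 lie between -1.25 and 3.51.

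The F28 and T35 animals of runs 1 and 3 were largely those of run 2. F28 was above T35 in 120 of the 120 genes in both runs (62% and 67.3% of the 8401 genes), so the loss that chose the genes was seen again in other libraries of mostly the same lungs. T31 was above T35 in 104 genes in run 1 (86.7%, against 61.2%) and in 85 in run 3 (70.8%, against 51.3%). F25 was above T35 in 105 genes in run 1 (87.5%, against 63.2%). A low level at T35 was built in by the choice, so part of the excess over the 8401 genes in these comparisons is built in too.

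Levels of single genes differed between runs for the same animal. From run 1 to run 2, over 4 animals, 10 of the 120 genes differed by more than 1 upwards and 11 downwards on the log2(CPM+1) scale, and from run 1 to run 3, over 5 animals, 9 and 13 did. Between runs 2 and 3, over 3 animals, it was 0 and 1. The share beyond 1 in either direction was 17.5%, 18.3% and 0.833% of the 120 genes and 13.3%, 19.1% and 1.19% of the 8401, so run differences of this size were general. The median difference over the 120 genes was 0.14, 0.13 and 0.04, against -0.04, -0.05 and -0.01 over the 8401. The gene ranked 37 was 2.81 lower in run 2 than in run 1, and the gene ranked 87 was 2.18 higher. Tests were therefore made within 1 run, and where values of a gene from run 1 stand beside those of another run, the distance between them includes the difference between runs.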

How the data were processed

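Lung RNA was sequenced from the 3′ end (QuantSeq FWD). The deposited table holds whole-number counts per gene, made by the authors with BBduk, STAR and HTSeq-count on OryCun2.0 and the Ensembl annotation, after FastQC. Versions are not given in the sources used here, nor whether the table includes reads from the authors' added 3′ UTRs. Totals were 5771693 to 8073755 counts, so 3 counts are 0.372 to 0.52 CPM. Each column was mapped to its animal and run by the labels, with 0 columns left over.

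The 120 genes, the gene lists and the comparisons were chosen with earlier results of these data known. Genes were chosen on log2(CPM+1), CPM being counts over the library total, in run 2. Tests were made with edgeR 4.0.16 in R 4.3.3 (quasi-likelihood, TMM, at least 0.5 CPM in at least 3 fitted libraries, 2-fold, adjusted p of at most 0.05). Run 1 was fitted with 12 libraries (F25, F27, F29, T31) and run 3 with 18 (F20, F23, T31, T37, T42), 1 library per animal. F28, T35 and preterm libraries entered none of these main fits. F28 and T35 libraries did enter the alternative fits with more groups of a run and with runs 1 and 3 together. In simulated data 200 genes were changed, each by well over 2-fold, and 71% to 79.5% were recovered over the 6 comparisons. There were 0 calls of the wrong sign and 1 to 5 false calls. Recovery of smaller changes, among them those just above 2-fold, was not measured.

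The alternatives were DESeq2 1.42.0, limma-voom (limma 3.58.1), upper-quartile scaling, other filters and fitted samples, the adjusted p alone and each library left out. The genes to be named were the 12 with the widest margin and up to 5 called in each direction per comparison. As identifiers are not paired with names here, the planned lists and markers were not counted, identifiers were limited to 2 genes that fell and 2 that rose, and the others go by rank. The genes ranked 32 and 37 were chosen after their values were seen. Figures were drawn with matplotlib 3.10.9.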

Additional observations from a re-analysis of the deposited data

Results flagged for a closer look

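For the named genes and the average of the 120, 144 groups of 4 to 6 animals (F20, F23, T31 and T37) were examined for an animal far from the others, and 8 were found, where chance gives about 1 in 20. All values are on the log2(CPM+1) scale. T37 animal 27 stood apart in 3 genes: it had 6.47 for the gene ranked 27 (others 5.43 to 5.57), 1.43 for the gene ranked 37 (others 2.28 to 2.45) and 3.89 for the gene ranked 47 (others 5.24 to 5.33). F20 animal 35 stood apart in 2: it had 1.16 for ENSOCUG00000009399 (others 1.85 to 1.91) and 0.185 for the gene ranked 70, for which the other 3 animals had 0. F20 animal 1 had 0.208 for the gene ranked 3, and the others 0, so that this difference too is of single counts. F20 animal 17 had 4.64 for the gene ranked 87 (others 4.06 to 4.10). Among the 6 newborns, 3 from each of runs 1 and 3, T31 animal 18 of run 3 had 4.24 for the gene ranked 8 (others 2.13 to 2.83), and in animals sequenced in both runs this gene was 0.34 higher in run 3.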

How the results depend on the processing

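No paired analysis was possible because the numbers in the labels are animal numbers within a time point, and the groups compared share 0 of them. The choice of genes kept 111 of the 120 with TMM scaling, 116 with a pseudocount of 0.5, 99 with a limit of 3.6, 85 with no limit, 99 with group medians and 102 to 114 with 1 run 2 library left out. From F29 to T31, where edgeR called 0 of the 120, 5 were called with no filter on low counts, 4 with runs 1 and 3 together and run as a covariate and 7 with DESeq2, all lower, and 0 to 26 with a library left out. From F25 to F29, 12 to 21 were called with a library left out. From T31 to T37, 17 were called with at least 10 counts in every library, when only 101 of the 120 were tested, and 17 to 36 with a library left out. The other alternatives kept each count within 1.5 times. The shares of all genes called under these settings are not set beside these counts, so a change particular to the 120 cannot be read from them. Of 36 calls of single genes, 28 held under every alternative other than leaving out a library and 24 with every library left out, and 0 reversed. These counts cover only the settings in which the gene was tested. A gene dropped by a filter, such as that of at least 10 counts in every library, had no value there and was not counted as lost. At these depths a level under about 1 CPM rests on a few counts.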
